A study of Mus musculus with 10 samples.

Results

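The 10 genes described here encode cell surface receptors with which macrophages take up modified lipoproteins, glycoproteins, microbes and dying cells. They were chosen as a named list and comprised *Msr1*, *Marco*, *Cd36*, *Scarb1*, *Mrc1*, *Stab1*, *Cd163*, *Axl*, *Mertk* and *Trem2*, out of 55573 genes in the table. All 10 passed the filter of at least 1 CPM (a relative count, the reads of a gene scaled to a fixed library total) in 2 or more libraries, as did 11978 genes in all, although *Cd163* passed only narrowly. RNA was sequenced from bone marrow–derived macrophages (BMDMs) of female, wild-type C57BL/6 mice, grown with the macrophage growth factor M-CSF. Every culture was treated for 4 hours, and each of the 5 groups had 2 libraries, 10 in all. The groups were vehicle, 5 μg of polyuridine RNA carried by the lipid DOTAP (polyU), the purine nucleoside phosphorylase inhibitor ulodesine at 1 μM with deoxyguanosine and guanosine at 5 μM each (PNPi+dG/rG), the same 3 compounds together with polyU (PNPi+dG/rG+polyU), and 1 ng/mL of R848. PolyU and guanosine nucleosides are natural ligands of separate sites on the endosomal RNA sensor TLR7, and R848 is a synthetic ligand of TLR7 that acts without RNA. The labels call the libraries biological replicates without saying whether they came from separate mice, and the p-values measure only the spread between these libraries. Each treatment was given at 1 dose and 1 time, so the comparison of PNPi+dG/rG+polyU with R848 sets these doses side by side. The labels name DOTAP only in the groups given polyU, and no group had DOTAP alone. Effects of the RNA and of its lipid carrier therefore cannot be told apart.

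Scavenger receptors bind a wide range of negatively charged or modified ligands and carry them into the endosome. Efferocytosis is the engulfment of apoptotic cells, in which receptors recognise exposed phosphatidylserine either directly or through soluble bridging proteins such as GAS6 and protein S. Macrophages in tissues use these receptors to clear debris, and the set they display differs with their state of activation. MSR1 and MARCO are class A scavenger receptors with collagen-like stalks. CD36 and SCARB1 (SR-BI) belong to class B and handle oxidized lipoproteins, fatty acids and high-density lipoprotein. MRC1 is the mannose receptor, STAB1 (stabilin-1) clears modified and matrix proteins, and CD163 takes up hemoglobin bound to haptoglobin. AXL and MERTK are receptor tyrosine kinases of the TAM family, which bind GAS6, and TREM2 is a lipid-binding receptor that signals through the adaptor TYROBP.

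All 10 are protein-coding genes of the mouse genome build GRCm38 (GENCODE M21 annotation). *Msr1* lies at chr8:39581685-39642673 and *Marco* at chr1:120474538-120505024, both on the minus strand. *Cd36* lies at chr5:17781690-17888801 and *Scarb1* at chr5:125277087-125341094, both on the minus strand. *Mrc1* lies at chr2:14229392-14332057 and *Mertk* at chr2:128698956-128802894, both on the plus strand. *Stab1* lies at chr14:31139013-31168641 on the minus strand and *Axl* at chr7:25757273-25788705 on the minus strand. *Cd163* lies at chr6:124304656-124330527 and *Trem2* at chr17:48346401-48354147, both on the plus strand. *Stab1* overlaps the protein-coding gene *Nt5dc2* on the opposite strand, which reached at most 123 CPM in any library, and the sources used here do not say whether reads were counted by strand. Values of *Stab1* therefore carry that uncertainty, whereas the genes that overlap *Mrc1*, *Mertk* and *Scarb1* stayed at or under 0.563 CPM.

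RefSeq promoter windows, which run from 250 bases before to 50 bases after a start site on GRCm38.p6, were found for 8 of the 10 genes, the exceptions being *Msr1* and *Scarb1*. The 250 upstream bases are given for *Marco*, *Mertk* and *Stab1*, which were called changed with R848 as well as with PNPi+dG/rG+polyU, and for *Trem2*, which was called with R848 and held matches to more than 1 of the words searched. They come from chr1:120505025-120505274 on the minus strand for *Marco*, chr2:128698665-128698914 on the plus strand for *Mertk*, chr14:31168642-31168891 on the minus strand for *Stab1* and chr17:48346151-48346400 on the plus strand for *Trem2*. Capitals mark the matches on either strand.
Marco: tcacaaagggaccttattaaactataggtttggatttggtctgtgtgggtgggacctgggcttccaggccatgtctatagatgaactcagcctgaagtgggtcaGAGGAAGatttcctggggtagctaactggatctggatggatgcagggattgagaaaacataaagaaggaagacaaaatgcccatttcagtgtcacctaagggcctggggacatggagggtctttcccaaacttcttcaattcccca
Mertk: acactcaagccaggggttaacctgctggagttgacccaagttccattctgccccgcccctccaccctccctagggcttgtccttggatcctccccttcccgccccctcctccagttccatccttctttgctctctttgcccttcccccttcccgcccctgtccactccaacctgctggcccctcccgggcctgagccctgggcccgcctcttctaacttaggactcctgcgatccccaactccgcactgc
Stab1: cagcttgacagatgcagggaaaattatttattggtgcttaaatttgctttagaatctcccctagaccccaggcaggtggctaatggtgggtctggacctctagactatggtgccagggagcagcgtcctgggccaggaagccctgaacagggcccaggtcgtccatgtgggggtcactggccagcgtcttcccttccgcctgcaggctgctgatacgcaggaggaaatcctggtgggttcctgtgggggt
Trem2: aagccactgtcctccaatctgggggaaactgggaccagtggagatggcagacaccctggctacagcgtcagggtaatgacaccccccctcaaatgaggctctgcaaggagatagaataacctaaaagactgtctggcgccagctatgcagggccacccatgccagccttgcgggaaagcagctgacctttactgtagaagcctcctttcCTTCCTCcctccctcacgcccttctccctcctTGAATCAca
The words searched on both strands were GAGGAAG for PU.1, the macrophage lineage factor, TGANTCA for AP-1, GGGANTTTC for NF-κB, GAAANNGAA for interferon-stimulated response elements, TTCNNNGAA for STAT factors, TGACGTCA for cyclic AMP response elements, TCACGTGA for lysosomal gene (CLEAR) elements and TATAAA for TATA boxes. The PU.1 word stood in 4 of the 8 windows, those of *Marco*, *Mrc1*, *Axl* and *Trem2*, and in 13.6% of all 32851 windows in the RefSeq table. In *Marco* its first base lay 146 bases before the start site. The AP-1 word stood only in *Trem2* among the 8, with its first base 9 bases before the start site and clear of the PU.1 match, against 7.81% of all windows. None of the other words was found in the 8 windows, where all windows held the NF-κB word in 1.11%, the interferon word in 8.56%, the STAT word in 8.30%, the cyclic AMP word in 1.79%, the CLEAR word in 0.974% and the TATA word in 13.6%. The *Marco* window shown holds 0 CG pairs and that of *Mertk* holds 7, beside a median of 6 over the same 250 bases of all windows.

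The libraries held 14128124 to 38392594 reads on genes, and the detection limit used, 3 reads, equalled 0.0781 to 0.212 CPM. All 12 macrophage markers were at or above 1 CPM in every library, and their summed level lay between 26446 and 27230 CPM in vehicle, 23380 and 24141 CPM with R848, and 23535 and 23577 CPM with PNPi+dG/rG+polyU. Both R848 libraries stood apart in fibroblast genes. There 9 of the 10 fibroblast markers reached 1 CPM in both, with a sum of 168 to 179 CPM against 0.729 to 1.35 CPM in vehicle and 5.38 to 6.19 CPM with PNPi+dG/rG+polyU. *Col1a1*, a chain of collagen I, stood at 51.6 and 58.3 CPM with R848 and at 0.112 and 0.393 CPM in vehicle. No fibroblast marker was at 0 in all libraries, and their part in the R848 results was not tested. The 10 endothelial markers summed to between 243 and 249 CPM in vehicle, 146 CPM in both PNPi+dG/rG+polyU libraries, and 77.1 to 82.9 CPM with R848. Most of that came from *Kdr* and *Vwf*, while *Cldn5* was at 0 in every library and 5 of the 10 stayed under 1 CPM everywhere. *Flt1* was higher with R848, at 12.4 and 13.0 CPM against 2.36 and 3.54 in vehicle, as was *Pecam1*, at 1.06 and 1.07 against 0.337 and 0.0562. By the 2-fold rule given below, R848 called 2 of the 5 endothelial markers tested higher and 1 lower, beside 8.89% and 30.3% of all genes. The part of the endothelial markers in the results was not tested either. The granulocyte sum was 4.77 to 5.67 CPM in vehicle, 23.0 to 25.2 CPM with R848 and 9.98 to 9.99 CPM with PNPi+dG/rG+polyU, with *Ly6g* and *Retnlg* at 0 in every library. Of the dendritic cell and lymphocyte lists, 9 of 10 genes each stayed under 1 CPM in every library.

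Levels were first compared between the receptors per kilobase of exon. In vehicle, *Cd36* was the most abundant at a mean of 253 CPM per kb, followed by *Stab1* at 159, *Msr1* at 121, *Trem2* at 114 and *Mrc1* at 92.2. A lower tier held *Axl* at 21.1 CPM per kb, *Scarb1* at 14.6, *Mertk* at 9.32 and *Marco* at 7.61. *Cd163* came last at 0.195 CPM per kb, from 17 and 21 reads. Among neighbours in that order, the library values of *Msr1* and *Trem2* overlapped, whereas those of the other pairs did not. *Cd36* stayed first in all 5 groups and *Cd163* last. *Marco* took rank 9 in vehicle, rank 3 with PNPi+dG/rG+polyU at 86.7 CPM per kb, above *Trem2* at 71.0 and *Stab1* at 67.6, and rank 6 with R848 at 29.5. *Msr1* took rank 2 with PNPi+dG/rG+polyU and R848, at 153 and 211 CPM per kb. The CPM of the 10 genes summed to 4703 and 4791 in the vehicle libraries, 3710 and 3782 with R848, and 3326 and 3377 with PNPi+dG/rG+polyU.

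**Figure D1:**
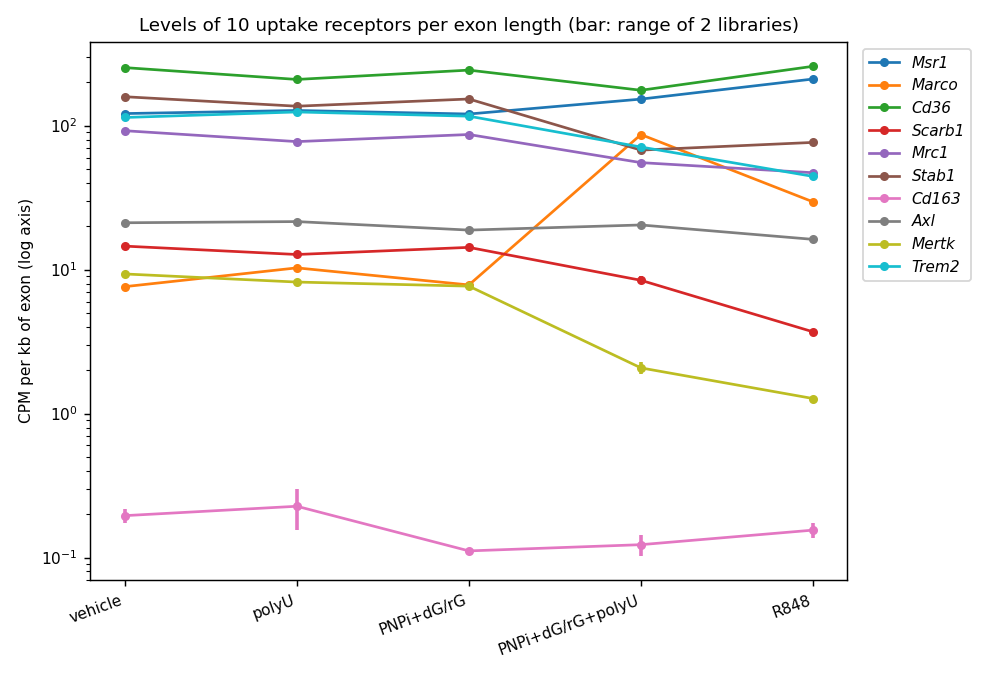
Mean level of each receptor in CPM per kb of exon (log axis) in the 5 groups, with bars for the range of the 2 libraries. *Marco* moved from rank 9 of 10 in vehicle (7.61) to rank 3 with PNPi+dG/rG+polyU (86.7), *Mertk* dropped from 9.32 to 2.08, and *Cd163* lay lowest in every group.

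Each treatment was then compared with the same 2 vehicle libraries. A gene was called at a Benjamini-Hochberg adjusted p-value under 0.05 in limma, over all genes tested, together with a change of at least 2-fold, and fold changes are differences in mean log2 CPM. PolyU alone changed none of the 10 receptors by this rule, where 3.21% of all genes tested were called higher and 0.776% lower, and 6 of the 10 had an unadjusted p-value under 0.05 in limma, as did 46.9% of all genes. Smaller differences passed the adjusted p-value alone for *Marco*, from 14.0 and 15.3 CPM in vehicle to 20.7 and 18.9 CPM (log2 difference 0.43, SE 0.076, adjusted p = 3.27e-04), and for *Cd36*, which was 0.27 lower on the log2 scale (log2 difference -0.27, adjusted p = 3.45e-05). *Mrc1* (log2 difference -0.25, adjusted p = 4.32e-04), *Stab1* (-0.22, adjusted p = 1.26e-03) and *Scarb1* (-0.19, adjusted p = 0.0439) also passed it. PNPi+dG/rG without polyU called 0 of 10, with 0.0668% of all genes higher and 0.00835% lower, and no receptor had an adjusted p-value under 0.05. At an unadjusted p-value under 0.05 in limma there were 2 of the 10 receptors, *Axl* and *Mertk*, with log2 differences of -0.17 and -0.28, and 8.98% of all genes. Intervals at 95% for the log2 difference with PNPi+dG/rG ran from -0.12 to 0.20 for *Marco* and from -0.10 to 0.13 for *Trem2*.

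**Figure D2:**
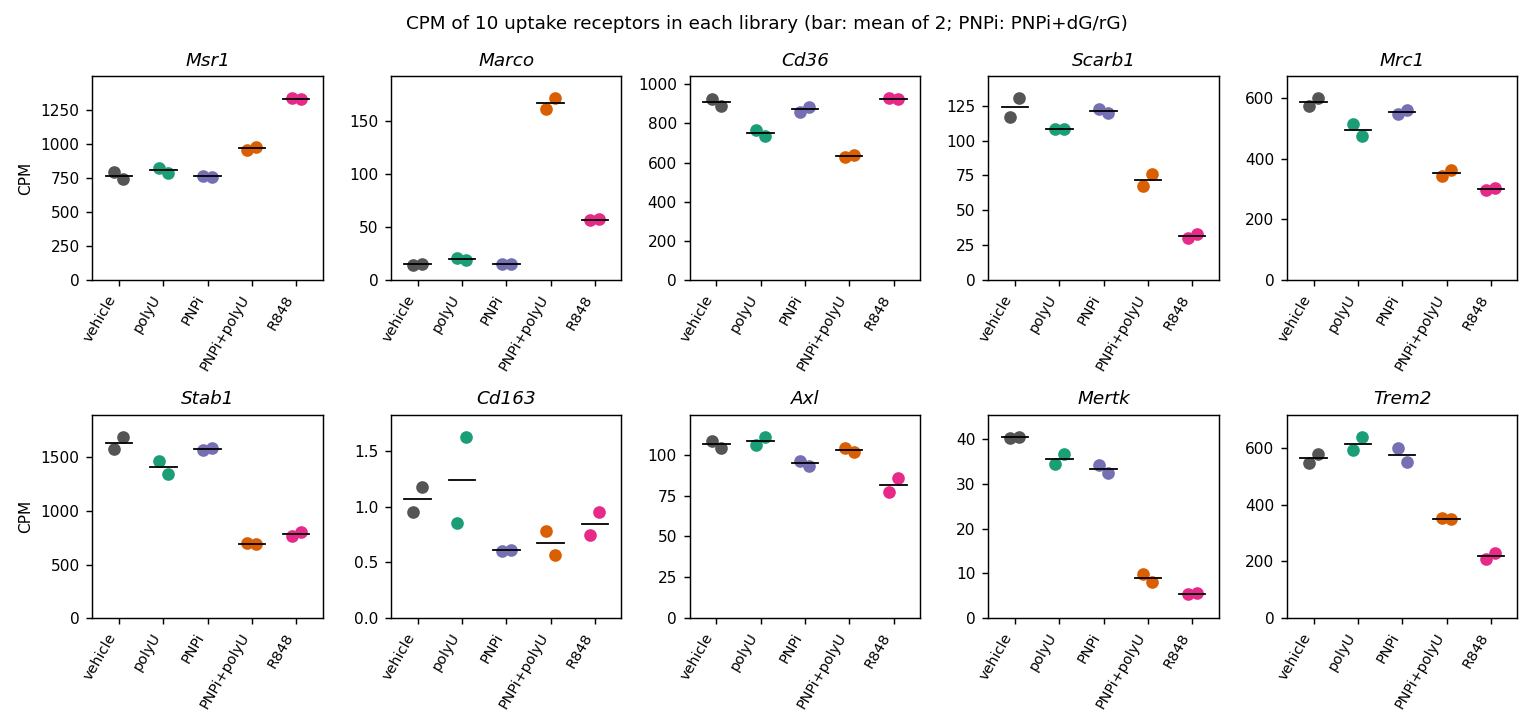
CPM of the 10 receptors in each of the 10 libraries (points) with the mean of each group of 2 (bar), each axis starting at 0. *Marco* stood at 162 and 172 with PNPi+dG/rG+polyU and at 56.3 and 57.5 with R848, against 14.0 to 20.7 in the other 6 libraries, and *Mertk* at 5.36 to 9.84 in the 4 libraries of those 2 treatments against 32.4 to 40.6 in the others.

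PNPi+dG/rG+polyU changed 3 of the 10 receptors. *Marco* rose, and *Mertk* and *Stab1* fell, where 8.12% of all genes tested were called higher and 14.3% lower. R848 changed 5 of 10: *Marco* rose, and *Mertk*, *Scarb1*, *Trem2* and *Stab1* fell, where 8.89% of all genes were called higher and 30.3% lower. At an adjusted p-value under 0.05 and any fold, 2 receptors were higher and 6 lower with PNPi+dG/rG+polyU, beside 22.2% and 46.7% of all genes. The counts with R848 were also 2 higher and 6 lower, beside 19.2% and 62.9% of all genes. The median log2 change of the 10 was -0.68 in both comparisons. Over every gene tested, the median log2 change with R848 was -0.50 and that with PNPi+dG/rG+polyU was -0.22, so a typical gene had a lower CPM in these libraries. When the log2 values of each library were shifted to a common median over the genes tested (centred libraries), PNPi+dG/rG+polyU again gave 1 receptor higher and 2 lower, whereas R848 gave 2 higher (*Marco* and *Msr1*) and 2 lower (*Mertk* and *Scarb1*). Over all genes, centring turned 1065 higher and 3633 lower calls with R848 into 1792 and 2107, and 973 and 1712 with PNPi+dG/rG+polyU into 1192 and 1245.

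**Figure D3:**
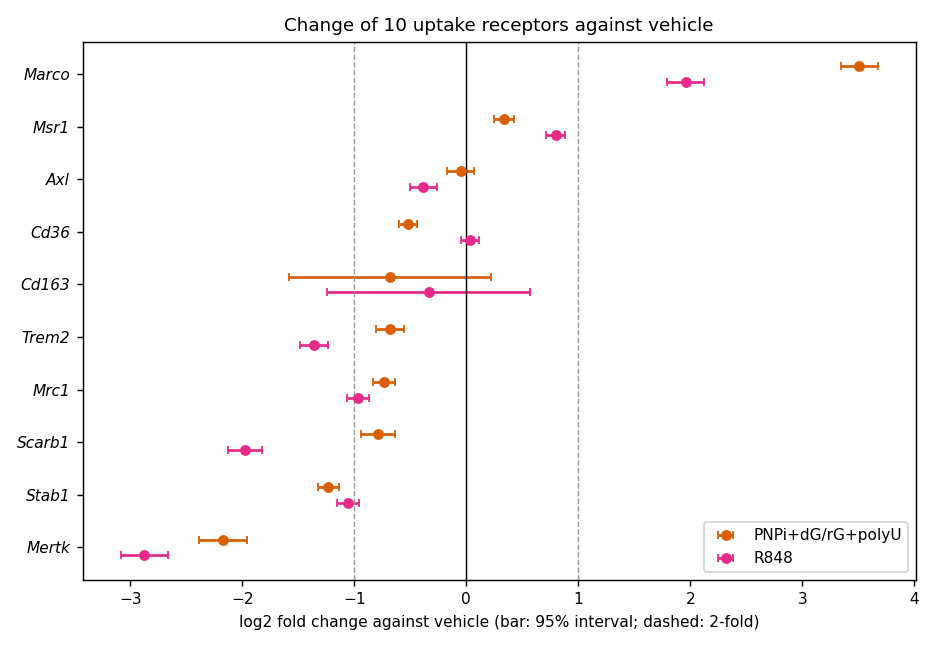
Log2 fold change against vehicle for each receptor, with 95% intervals from limma, for PNPi+dG/rG+polyU (orange) and R848 (pink), and dashed lines at 2-fold. *Marco* lay above the upper line for both treatments and *Mertk* below the lower line for both, while *Scarb1* and *Trem2* passed it with R848 only, at -1.98 and -1.36.

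Of the class A receptors, *Marco*, whose product binds bacteria and particles, gave the only called rise. It stood at 14.0 and 15.3 CPM in vehicle, 20.7 and 18.9 with polyU, 15.5 and 14.6 with PNPi+dG/rG, 56.3 and 57.5 with R848, and 162 and 172 with PNPi+dG/rG+polyU. Libraries of the last group were the highest, the R848 libraries came next, and neither overlapped any other group. The rise was 11.4-fold with PNPi+dG/rG+polyU (log2 difference 3.51, SE 0.076, adjusted p = 1.97e-15), from 14.7 ± 0.887 to 167 ± 6.86 CPM (SD, n = 2). With R848 it was 3.88-fold (log2 difference 1.96, SE 0.076, adjusted p = 1.11e-12). *Msr1*, the receptor of modified lipoproteins, stood at 798 and 740 CPM in vehicle, 1339 and 1334 with R848, and 956 and 983 with PNPi+dG/rG+polyU, with polyU and PNPi+dG/rG between 760 and 826. Its R848 libraries were the highest, and their difference from vehicle was 1.74-fold (log2 0.80, SE 0.041, adjusted p = 3.35e-11), short of 2-fold. With centred libraries the *Msr1* difference was 1.39 on the log2 scale and passed 2-fold. Within a library, the ratio of *Marco* to *Msr1* CPM, which no scaling of the library changes, was 0.0176 and 0.0206 in vehicle, 0.0421 and 0.0431 with R848, and 0.169 and 0.175 with PNPi+dG/rG+polyU.

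The class B receptors differed from each other. *Scarb1*, which exchanges cholesterol with high-density lipoprotein, stood at 117 and 130 CPM in vehicle, 108 in both polyU libraries, 122 and 120 with PNPi+dG/rG, 29.8 and 33.0 with R848, and 67.0 and 76.2 with PNPi+dG/rG+polyU. Both treated groups lay below all others and the R848 libraries were the lowest. *Scarb1* fell 3.94-fold with R848 (log2 difference -1.98, SE 0.071, adjusted p = 3.81e-13), whereas the difference with PNPi+dG/rG+polyU was 1.73-fold (-0.79, SE 0.071, adjusted p = 7.07e-08) and under 2-fold. *Cd36*, which binds oxidized lipoproteins, thrombospondin and fatty acids, stood at 925 and 891 CPM in vehicle, 768 and 735 with polyU, 858 and 886 with PNPi+dG/rG, 929 and 925 with R848, and 627 and 637 with PNPi+dG/rG+polyU. Its PNPi+dG/rG+polyU libraries were the lowest, at 1.44-fold under vehicle (log2 difference -0.52, SE 0.038, adjusted p = 4.86e-09). For R848 the difference of *Cd36* from vehicle was 0.03 on the log2 scale, with a 95% interval of -0.05 to 0.11, but 0.62 with centred libraries (adjusted p = 2.57e-10). The ratio of *Cd36* to *Scarb1* within a library was 6.84 and 7.90 in vehicle, 28.0 and 31.1 with R848, and 8.36 and 9.35 with PNPi+dG/rG+polyU.

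*Stab1*, *Mrc1* and *Cd163* are often used to mark macrophages in a resting or alternatively activated state. *Stab1* stood at 1576 and 1690 CPM in vehicle, 1463 and 1344 with polyU, 1564 and 1585 with PNPi+dG/rG, 768 and 805 with R848, and 704 and 687 with PNPi+dG/rG+polyU. The 4 libraries of the last 2 groups lay far below the rest, with those of PNPi+dG/rG+polyU the lowest. The fall was 2.35-fold with PNPi+dG/rG+polyU (log2 difference -1.23, SE 0.046, adjusted p = 1.12e-12) and 2.08-fold with R848 (-1.05, SE 0.046, adjusted p = 4.00e-12). With centred libraries these became -1.02 and -0.46, so that only the former remained past 2-fold. *Mrc1* stood at 575 and 599 CPM in vehicle, 513 and 474 with polyU, 546 and 559 with PNPi+dG/rG, 297 and 303 with R848, and 342 and 363 with PNPi+dG/rG+polyU. *Mrc1* was lower than vehicle by 1.96-fold for R848 (log2 difference -0.97, SE 0.046, adjusted p = 1.27e-11), just under 2-fold, and by 1.67-fold for PNPi+dG/rG+polyU (-0.74, SE 0.046, adjusted p = 7.84e-10). With centred libraries the *Mrc1* differences were -0.37 for R848 and -0.53 for PNPi+dG/rG+polyU, so the order of these treatments reversed. *Cd163* was hardly present, at 0.563 to 1.63 CPM over the 10 libraries, and rested on 8 to 31 reads in each. Its vehicle libraries, at 0.954 and 1.18 CPM, overlapped those of polyU, at 0.852 and 1.63 CPM, and lay above all libraries of the other groups, at 0.563 to 0.949 CPM. A difference was not detectable at this depth (log2 difference -0.68 with a 95% interval of -1.58 to 0.22 for PNPi+dG/rG+polyU).

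The TAM receptors separated. *Mertk*, the main efferocytosis kinase of resting macrophages, stood at 40.3 and 40.6 CPM in vehicle, 34.4 and 36.7 with polyU, 34.2 and 32.4 with PNPi+dG/rG, 5.36 and 5.66 with R848, and 9.84 and 8.16 with PNPi+dG/rG+polyU. The last 4 libraries were the lowest and those of R848 lay under all others. *Mertk* fell 4.51-fold with PNPi+dG/rG+polyU (log2 difference -2.17, SE 0.10, adjusted p = 1.63e-11). With R848 it fell 7.33-fold (log2 difference -2.87, SE 0.10, adjusted p = 2.43e-13). In such bulk samples, fewer cells that carry a receptor and less of its RNA per cell cannot be told apart. *Axl*, a related kinase, stood at 109 and 104 CPM in vehicle, 106 and 111 with polyU, 96.1 and 93.3 with PNPi+dG/rG, 77.3 and 85.9 with R848, and 104 and 102 with PNPi+dG/rG+polyU. The R848 libraries were the lowest and the others lay close together. The log2 difference of *Axl* was -0.05 for PNPi+dG/rG+polyU (95% interval -0.17 to 0.07, adjusted p = 0.447) and -0.38 for R848 (adjusted p = 1.43e-05). With centred libraries both turned positive, at 0.16 and 0.21. The ratio of *Axl* to *Mertk* CPM within a library does not depend on scaling, and was 2.57 and 2.70 in vehicle, 3.03 and 3.08 with polyU, 2.81 and 2.88 with PNPi+dG/rG, 14.4 and 15.2 with R848, and 10.6 and 12.4 with PNPi+dG/rG+polyU.

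**Figure D4:**
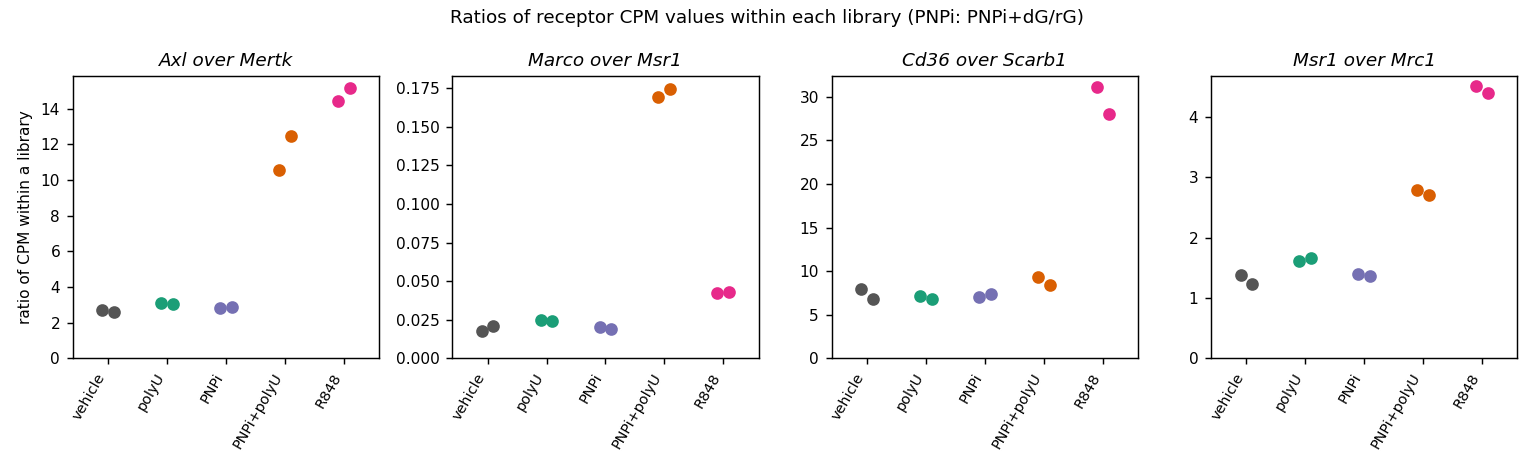
Ratios of receptor CPM within each library for 4 pairs, 1 point a library, with axes from 0. *Axl* over *Mertk* reached 10.6 to 15.2 in the PNPi+dG/rG+polyU and R848 libraries against 2.57 to 3.08 elsewhere, while *Cd36* over *Scarb1* was 28.0 and 31.1 with R848 and 6.77 to 9.35 in the other libraries.

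*Trem2* stood at 547 and 580 CPM in vehicle, 591 and 640 with polyU, 601 and 550 with PNPi+dG/rG, 208 and 231 with R848, and 353 and 349 with PNPi+dG/rG+polyU. The R848 libraries were the lowest and the PNPi+dG/rG+polyU libraries came next, without overlap. *Trem2* fell 2.57-fold with R848 (log2 difference -1.36, SE 0.059, adjusted p = 2.00e-11), although the centred difference was -0.77 and under 2-fold. With PNPi+dG/rG+polyU it was 1.60-fold lower than vehicle (-0.68, SE 0.059, adjusted p = 1.06e-07). Its adaptor *Tyrobp* stood at 617 and 660 CPM in vehicle, 474 and 500 with R848, and 637 and 652 with PNPi+dG/rG+polyU. The log2 difference of *Tyrobp* was -0.39 for R848 (adjusted p = 1.33e-06) and 0.01 for PNPi+dG/rG+polyU (adjusted p = 0.810), and it was not called in either comparison. With centred libraries these became 0.20 (adjusted p = 0.00121) and 0.23 (adjusted p = 7.00e-04), so the R848 difference turned positive.

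**Figure D5:**
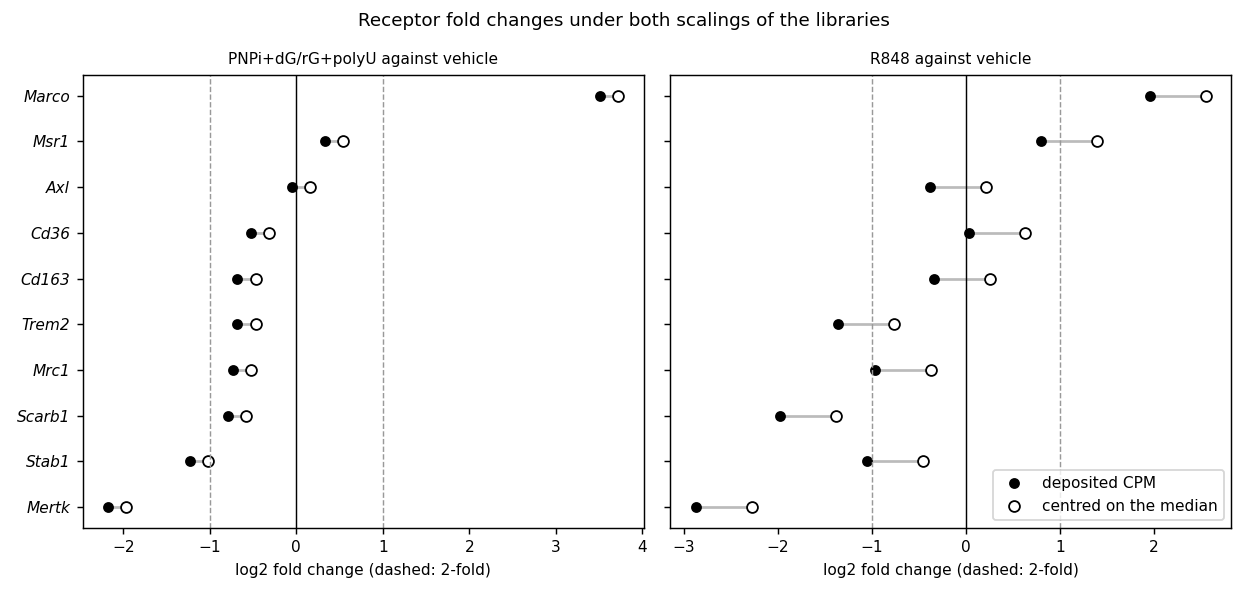
Log2 fold change of each receptor against vehicle from the deposited CPM (filled) and after centring the libraries (open), for PNPi+dG/rG+polyU (left) and R848 (right), with dashed lines at 2-fold. With R848 every open point lay to the right of its filled one, *Stab1* and *Trem2* moved inside the lower line, *Msr1* moved past the upper line, and *Axl* and *Cd163* changed sign.

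The effect of adding PNPi+dG/rG to polyU was measured by comparing PNPi+dG/rG+polyU with polyU alone. *Marco* rose 8.44-fold (log2 difference 3.08, SE 0.076, adjusted p = 3.80e-14), and *Mertk* fell 3.96-fold (-1.99, SE 0.10, adjusted p = 9.69e-11). *Stab1* fell 2.02-fold (-1.01, SE 0.046, adjusted p = 2.51e-11), close to the limit of 2-fold. These 3 of 10 compare with 5.29% of all genes called higher and 10.2% lower. The call of *Stab1* was lost with centred libraries (-0.76), without polyU replicate 1 (-0.95) and without PNPi+dG/rG+polyU replicate 2 (-0.99). *Cd163* was called only when polyU replicate 1 was left out (log2 difference -1.30, adjusted p = 0.0375). The interaction, the difference between the effects of PNPi+dG/rG in the presence and absence of polyU, was called for *Marco* (log2 3.04, SE 0.11, adjusted p = 8.03e-12) and *Mertk* (-1.70, SE 0.14, adjusted p = 9.03e-08), 1 receptor higher and 1 lower, where 4.55% of all genes were called higher and 8.87% lower. For *Stab1* the interaction was -0.96 (SE 0.064, adjusted p = 7.93e-09), and it passed 2-fold without vehicle replicate 2 (-1.01) or without polyU replicate 2 (-1.02) and was -0.67 with centred libraries. *Trem2* (-0.84, adjusted p = 1.49e-06) and *Scarb1* (-0.57, adjusted p = 2.37e-04) also had interactions under 2-fold. So did *Mrc1* (-0.40, adjusted p = 1.25e-04), *Cd36* (-0.19, adjusted p = 0.00763) and, higher, *Msr1* (0.27, adjusted p = 0.00115). Over all genes tested the median interaction was -0.27. With centred libraries *Trem2* was -0.55, *Scarb1* -0.28, *Mrc1* -0.11, *Cd36* 0.10 and *Msr1* 0.56. For *Axl* the interaction was 0.09, with a 95% interval of -0.08 to 0.26, but 0.38 with centred libraries (adjusted p = 0.00122).

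The natural ligand pair was also compared directly with R848. With PNPi+dG/rG+polyU, *Marco* was 2.93-fold higher than with R848 (log2 difference 1.55, SE 0.076, adjusted p = 7.61e-11) and *Scarb1* 2.28-fold higher (1.19, SE 0.071, adjusted p = 7.28e-10). No receptor was called lower, and these 2 of 10 higher compare with 16.9% of all genes higher and 3.86% lower. With centred libraries *Scarb1* was 0.80 higher and no longer past 2-fold, which left *Marco*. *Mertk* (log2 difference 0.70, adjusted p = 1.34e-05) and *Trem2* (0.68, adjusted p = 1.31e-07) were higher and *Cd36* (-0.55, adjusted p = 3.43e-09) and *Msr1* (-0.46, adjusted p = 6.77e-08) lower with PNPi+dG/rG+polyU, all under 2-fold. The median log2 difference over all genes tested was 0.31 in this comparison. With centred libraries *Mertk* and *Trem2* became 0.32 and 0.30, and *Cd36* and *Msr1* became -0.94 and -0.85. The difference of *Stab1* was -0.18 (95% interval -0.27 to -0.08), and -0.56 with centred libraries (adjusted p = 8.94e-09). For *Mrc1* the difference of 0.23 became -0.15 with centred libraries, and for *Axl* that of 0.33 became -0.05.

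The patterns of other genes were set beside those of the receptors by the root mean square difference, over the 8 treated libraries, of log2(CPM + 1) minus its vehicle mean, among 8459 genes. Nearest to *Marco* were *Cd83* at 0.29, *Zfp36* at 0.30 and *Tet2* at 0.38. Nearest to *Mertk* were *Slc45a4* at 0.14, *Mid1ip1* at 0.14 and *Baiap2* at 0.16. Those nearest to *Stab1* were *Rbl2*, *Sh2b3* and *Tspan14*, at 0.09 each. *Scarb1* was most closely followed by *Parp1* at 0.07, *Cd84* at 0.08 and *Uaca* at 0.08. The distance was thus larger for *Marco* than for the other 3.

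Genes that work with these receptors were taken from 8 lists of 100 genes in all. They are read beside the same shares of all genes as above, 8.89% higher and 30.3% lower with R848, and 8.12% and 14.3% with PNPi+dG/rG+polyU. Beyond the naming rule, *Megf10*, *Colec12*, *Scarf1*, *Havcr2*, *Elmo2*, *Ly75*, *Clec10a*, *Pla2r1*, *Clec4d*, *Cd302*, *Treml1*, *Treml2*, *Treml4*, *Trem3*, *Ppard*, *Pirb* and *Rhbdf1*, those named only for a call gained or lost on centring (*Ager*, *Crk*, *Dock1*, *Fcer1g* and *Abca7*), *Cd300lf* with PNPi+dG/rG+polyU, and *Rxra* and *Cd47* with R848 were named after their values were seen, so that small counts could be given by gene. Of the 16 other scavenger receptors, 12 were tested. PNPi+dG/rG+polyU called 2 higher and 1 lower. *Olr1*, the oxidized LDL receptor LOX-1, went from 0.449 and 0.112 CPM to 12.2 and 11.3, and *Cxcl16*, a membrane-bound chemokine that also binds oxidized LDL, from 243 in both to 630 and 649. *Lrp1*, a large endocytic receptor, stood at 4899 and 5247 CPM in vehicle and fell to 1348 and 1286 (log2 difference -1.94, adjusted p = 7.55e-15). R848 called 3 higher, namely *Olr1* at 42.0 and 43.5 CPM, *Cxcl16* at 586 and 599 and *Scarf1* at 84.9 and 97.7 from 43.3 and 47.5. It called 4 lower, namely *Lrp1* at 1600 and 1735 CPM, *Scarb2* at 69.0 and 65.1 from 158 and 155, *Colec12* at 16.5 and 17.4 from 36.5 and 33.3, and *Megf10* at 0 and 0.0306 from 2.41 and 2.08. *Scarb2* and *Colec12* were under 2-fold with centred libraries, where *Ager*, at or under 1.27 CPM in vehicle and both treatments, was called higher with R848 and with the ligand pair.

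Of the 10 bridging ligands, all were tested. *Gas6*, the ligand of AXL and MERTK, stood at 453 and 485 CPM in vehicle, 210 and 226 with R848, and 360 and 383 with PNPi+dG/rG+polyU. It fell with R848 (log2 difference -1.10, SE 0.052, adjusted p = 1.14e-11) and was 0.34 lower, under 2-fold, with PNPi+dG/rG+polyU (log2 difference -0.34, adjusted p = 3.17e-05). *Pros1*, which encodes protein S, stood at 27.0 and 26.2 CPM in vehicle, 11.1 and 12.0 with R848, and 17.3 and 17.1 with PNPi+dG/rG+polyU, and fell with R848 (log2 difference -1.20, adjusted p = 9.26e-09). *Mfge8*, which bridges phosphatidylserine to integrins, fell with R848 from 119 and 122 to 36.6 and 37.7 CPM, which made 3 of 10 lower. With centred libraries *Gas6* and *Pros1* were under 2-fold, and *Mfge8* stayed past it (-1.11). *Thbs1*, the thrombospondin that binds CD36, was the 1 ligand called higher in either comparison. It went from 6.90 and 8.09 CPM to 39.4 in both PNPi+dG/rG+polyU libraries and to 390 and 401 with R848, the group in which the fibroblast markers were also highest, and their part in it was not tested.

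Of 19 other efferocytosis receptors and engulfment genes, 14 were tested, and 1 was called higher in each comparison. That was *Xkr8*, a scramblase that exposes phosphatidylserine, at 11.9 and 12.6 CPM in vehicle, 47.6 and 50.0 with R848, and 42.4 and 37.6 with PNPi+dG/rG+polyU. The natural ligand pair called 5 lower. These were the integrin subunit *Itgb3* (17.7 and 19.8 to 4.46 and 2.60 CPM), the phosphatidylserine receptor genes *Cd300lb* (262 and 282 to 57.3 and 63.2) and *Cd300lf* (96.5 and 90.7 to 29.7 and 26.9), *Havcr2*, which encodes TIM-3 (85.5 and 81.7 to 22.1 and 16.2), and the engulfment adaptor *Elmo2* (97.6 and 99.1 to 37.7 and 40.2). R848 called 7 lower, among them *Cd300lf* at 4.94 and 4.01 CPM (log2 difference -4.39, adjusted p = 2.20e-15) and *Itgb3* at 1.65 and 1.53 (-3.56, adjusted p = 2.38e-10). With centred libraries R848 gave 2 higher and 6 lower, as the engulfment adaptor gene *Crk* (1.17) passed 2-fold and *Dock1* (-0.62) did not.

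Of 15 lectin uptake receptors, 10 were tested. PNPi+dG/rG+polyU called 2 higher and 0 lower. *Clec4e*, which encodes the receptor Mincle, rose from 231 and 212 to 2103 and 2198 CPM, and *Ly75* (DEC-205) from 2.13 and 2.81 to 8.14 and 6.96. With centred libraries *Clec4d* (1.02) and *Cd302* (1.08) also passed 2-fold, which made 4 higher. R848 called 5 higher, with *Clec4e* at 3563 and 3597 CPM (log2 difference 4.02, SE 0.051, adjusted p = 4.74e-18), *Clec4n* (dectin-2) at 42.2 and 42.1 from 12.0 and 11.2, *Ly75* at 10.0 and 9.86, *Cd302* at 85.7 and 82.4 from 36.9 and 34.8, and *Clec4d* at 814 and 819 from 412 and 402. The 2 called lower were *Clec10a* and *Pla2r1*, both at or under 2.64 CPM in every vehicle and R848 library, and *Pla2r1* was under 2-fold with centred libraries.

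Of 11 Fc and complement receptors, 10 were tested. *Fcgr2b*, the inhibitory IgG receptor, rose from 51.6 and 49.8 CPM to 684 and 779 with PNPi+dG/rG+polyU (log2 difference 3.85, SE 0.097, adjusted p = 2.69e-10) and to 1374 and 1399 with R848 (4.77, SE 0.097, adjusted p = 2.56e-11). *Fcgr4*, an activating IgG receptor, rose with PNPi+dG/rG+polyU from 17.1 and 17.9 to 38.4 and 46.5 CPM, which made 2 higher there. The complement receptor gene *C5ar1* was the 1 called lower there, from 796 and 761 to 397 and 365 CPM, and *Fcgr1* the 1 lower with R848, from 161 and 166 to 76.2 and 80.1. Both *C5ar1* and *Fcgr1* were under 2-fold with centred libraries (-0.82 and -0.47). Centring added *Fcgr4* (1.15) and the Fc receptor chain gene *Fcer1g* (1.05) to *Fcgr2b* with R848, which made 3 higher and 0 lower in place of 1 and 1.

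All 9 genes of the TREM list were tested. PNPi+dG/rG+polyU called 2 higher and 1 lower, and R848 4 higher and 2 lower. The kinase gene *Syk* rose from 491 and 493 CPM to 1270 and 1274 with PNPi+dG/rG+polyU and to 1679 and 1742 with R848. *Trem1*, an activating receptor of myeloid cells, rose with R848 from 2.81 and 3.09 to 44.0 and 45.4 CPM (log2 difference 3.92, SE 0.18, adjusted p = 6.67e-12). The others called in either direction, *Treml4* higher and *Treml1* lower with both treatments and *Trem3* higher and *Treml2* lower with R848, stayed at or under 5.39 CPM in the libraries of the comparisons that called them. *Treml2* with R848 was under 2-fold with centred libraries (-0.78).

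Of 10 nuclear receptor and lipid efflux genes, all tested, PNPi+dG/rG+polyU called 1 higher and 2 lower. *Nr1h3*, which encodes the oxysterol receptor LXRα, rose from 43.9 in both vehicle libraries to 136 and 138 CPM, and stood at 121 and 132 with polyU alone. Against polyU, the ligand pair gave *Nr1h3* a log2 difference of 0.12 (adjusted p = 0.0823), and 0.37 with centred libraries (adjusted p = 4.85e-05). The *Nr1h3* interaction was 0.21 (adjusted p = 0.0382), and 0.50 with centred libraries (adjusted p = 1.37e-04), both under 2-fold. The partner gene *Rxra* fell from 74.7 and 77.9 to 19.3 and 19.6 CPM, and the sterol exporter gene *Abcg1* from 73.5 and 68.2 to 18.6 and 24.0. R848 called 3 higher and 3 lower. *Nr4a1* went from 11.0 and 11.2 to 57.9 and 61.9 CPM, the cholesterol exporter gene *Abca1* from 58.4 and 64.8 to 294 and 306, and *Ppard* from 31.3 and 31.8 to 78.2 and 83.9. *Abcg1* fell to 6.69 and 7.78 CPM, *Pparg*, a nuclear receptor that drives *Cd36* in macrophages, from 56.0 and 55.4 to 10.7 in both, and *Rxra* to 23.0 and 21.9. With centred libraries R848 gave 5 higher and 3 lower, as *Nr1h3* (1.10) and the lipid transporter gene *Abca7* (1.52) passed 2-fold.

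The last list held proteases that cut receptors from the surface and brakes on uptake. All 10 were tested, with 3 higher and 0 lower for PNPi+dG/rG+polyU and 6 higher and 0 lower for R848. *Rhbdf2*, which encodes the ADAM17 partner iRhom2, rose from 64.4 and 72.4 CPM to 451 and 453 with PNPi+dG/rG+polyU (log2 difference 2.73, SE 0.052, adjusted p = 5.19e-16) and to 501 and 517 with R848. *Cd47*, the signal that inhibits engulfment, went from 192 and 187 to 429 and 424 CPM and to 483 and 498, and the inhibitory receptor gene *Pirb* from 229 and 219 to 487 and 457 and to 740 and 734. *Adam17*, the sheddase of MERTK, stood at 330 and 315 CPM in vehicle, 638 and 653 with R848, and 628 and 636 with PNPi+dG/rG+polyU. Its log2 difference was 1.00 with R848 (adjusted p = 3.17e-12), just past 2-fold, and 0.97 with PNPi+dG/rG+polyU (adjusted p = 9.40e-12), just under it. With centred libraries *Adam17* was called in both, at 1.60 and 1.18. *Adam10*, which cuts TREM2, stood at 270 and 247 CPM in vehicle, 156 and 150 with R848, and 159 and 151 with PNPi+dG/rG+polyU, with log2 differences of -0.75 for R848 and -0.74 for PNPi+dG/rG+polyU that were not called. With centred libraries the *Adam10* differences were -0.16 for R848 and -0.53 for PNPi+dG/rG+polyU. *Timp3*, an inhibitor of ADAM17, stood at 0 and 0.169 CPM in vehicle and at 36.4 and 31.0 CPM with R848, again the group with the highest fibroblast markers, whose part was not tested. *Rhbdf1*, the remaining gene called with R848, went from 1.29 and 1.40 to 4.62 CPM in both.

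Against polyU, PNPi+dG/rG+polyU gave 7 called higher and 7 called lower among the 85 genes tested of the 8 lists, beside 5.29% and 10.2% of all genes, and 9 and 6 with centred libraries. PolyU alone gave 2 higher and 1 lower of the 85, beside 3.21% and 0.776% of all genes. These were *Nr1h3*, *Clec4e* at 495 and 476 CPM, and, lower, *Nr4a1* at 4.49 and 5.35 CPM. PNPi+dG/rG without polyU gave 0 called by limma in any of the lists, with 15 of the 85 at an unadjusted p-value under 0.05, beside 8.98% of all genes.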

How the data were processed

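RNA-Seq of 10 BMDM libraries, 2 in each of 5 groups taken from the sample labels, was analysed. The authors deposited 1 table of CPM values, in which counts on genes are scaled to a shared library total and 0.0001 is added to each. Per the study's methods and the submitters' processing notes, 50 bp single reads were demultiplexed with bcl2fastq 2.19.1.403, mapped to GRCm38 with STAR 2.27a and counted on Ensembl release 97. The step between low values gave each library's depth, since 100% of values of up to 200 reads were whole multiples of it within 0.1 read. CPM holds no correction for a library's composition, so induced genes lower the share left for others. Count models were not fitted to these normalized values.

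Gene symbols and exon lengths came from GENCODE M21, which named 55394 of 55573 IDs. Testing was limited to genes at 1 CPM or more in 2 or more libraries and used log2 of the deposited values, offset included, in limma 3.58.1 (trend and robust, statmod 1.5.0) in R 4.3.3, all 5 groups in 1 fit, and p-values were adjusted over all genes within each of 7 comparisons. Fold changes of genes near 0 depend on that offset. The script was tested on simulated data. Alternatives changed the offset, filter, scaling, moderation, libraries and pairing.

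The 10 receptors, the 8 lists of related genes and the lists of macrophage, endothelial, fibroblast, dendritic cell, granulocyte and lymphocyte markers were chosen with earlier results of these data known. All 10 receptors were named. From each list of related genes, at most 2 called higher and 2 called lower were named in each comparison of PNPi+dG/rG+polyU or R848 with vehicle, those with the largest change among genes averaging at least 10 CPM in 1 of the groups. *Gas6*, *Pros1*, *Tyrobp*, *Adam10* and *Adam17* were always named, as were the 3 genes of nearest pattern for 4 receptors. Further genes were named after their values were seen where a count was small.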

Additional observations from a re-analysis of the deposited data

Results flagged for a closer look

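For 2 of the 10 receptors the effect of PNPi+dG/rG differed with and without polyU by the interaction test, past 2-fold and the adjusted threshold. For *Marco* it was 3.037 on the log2 scale (limma, adjusted p = 8.03e-12): adding PNPi+dG/rG went with a log2 difference of 0.04 without polyU and 3.08 with it. For *Mertk* it was -1.705 (limma, adjusted p = 9.03e-08), with differences of -0.28 without polyU and -1.99 with it. Leaving out each library in turn gave interactions of 2.97 to 3.10 for *Marco* and -1.84 to -1.57 for *Mertk*.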

How the results depend on the processing

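Of 1234 values for 70 results (10 receptors in 7 comparisons) under 18 alternatives, 1202 kept their direction and side of the call, 6 lost the call, 4 gained it and 22 turned sign. In 15 of these 22 the adjusted p was above the threshold before and after; 4 came from centring each library on its median, among them *Cd163* with R848 (0.26), and the others from leaving out 1 library. Centring gave all 7 in which an adjusted p had passed. *Axl* became 0.16 for PNPi+dG/rG+polyU against vehicle, 0.21 for R848 against vehicle, and for PNPi+dG/rG+polyU 0.18 against polyU and -0.049 against R848. *Cd36* became 0.0055 for PNPi+dG/rG+polyU against polyU and 0.10 in the interaction, and *Mrc1* -0.15 against R848. Centring also left 1 receptor called between PNPi+dG/rG+polyU and R848 in place of 2, because *Scarb1* was under 2-fold, and it ended the R848 calls of *Stab1* (-0.46) and *Trem2* (-0.77) and that of *Stab1* against polyU (-0.76), while *Msr1* with R848 passed 2-fold (1.39). The other counts of receptors called stayed within 1.5 times, and for each the cause was not tested. Without 1 library at a time, 2 calls were lost and 3 gained, all for *Stab1* or *Cd163*. With log2(CPM + 0.1) or log2(CPM + 1), no filter, a mean of at least 1 CPM, plain eBayes or only the groups compared, no call of a receptor that could be tested changed. *Cd163* did not pass the filter in some of these fits, and a group left with 1 library was taken to vary like the others.

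Over 10 pairs of groups, deviations of same-numbered libraries correlated at a median of -0.02 (-0.29 to 0.11) across 8459 genes. No common effect of the replicate number was thus visible. This cannot settle whether same-numbered libraries shared a mouse or preparation, which the labels do not say. With the number as a replicate block, against vehicle 3 receptors were called for PNPi+dG/rG+polyU, 5 for R848, and no call changed. Depth limits *Cd163*, at 8 to 31 reads a library.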
